A study of Mus musculus with 8 samples.

Results

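Matrix metalloproteinases (Mmp genes), ADAMTS proteases, the ADAMTS-like proteins and the tissue inhibitors of metalloproteinases (Timp genes) were followed in adipose precursors (APs) of mice after a brief high fat diet. The members were all array probe sets whose annotation gave exactly 1 gene symbol beginning with Mmp, Timp, Adamts or Adamtsl and a digit. They numbered 74 of the 21789 probe sets with 1 symbol. For a gene with several probe sets the brightest was used, which left 49 genes of 19938, namely 18 Adamts, 5 Adamtsl, 22 Mmp and 4 Timp genes.

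Gene expression was measured on 8 Affymetrix Mouse Gene 1.0 ST arrays. The groups were HFD viAP, SD viAP, HFD scAP and SD scAP, with 2 arrays each, where viAPs came from perigonadal visceral fat and scAPs from inguinal subcutaneous fat. All mice were male C57BL/6J of 7 to 8 weeks, kept for 3 days on high fat diet (HFD) or on standard diet (SD), and each array held RNA pooled from 3 of them. Digested fat was depleted of CD45+ and CD31+ cells, the cells that beads against SCA-1 then retained were lysed without culture, and no genotype differed between groups.

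Adipose precursors live in a matrix of collagens, fibrillins, fibronectin and proteoglycans that they themselves secrete. MMPs and ADAMTS proteases are zinc enzymes that cut this matrix or mature its precursors, ADAMTS-like proteins resemble ADAMTS but lack the catalytic domain, and TIMPs block the active site of many MMPs and, in the case of TIMP3, of ADAMTS4 and ADAMTS5. Remodelling of this kind is known to accompany the growth of fat pads, where the membrane enzyme MMP14 is required for collagen turnover.

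Values are log2 of the deposited intensity, so a change of 1 is 2-fold. A level orders arrays for a given gene and does not order genes. A gene was called at an adjusted p under 0.05 in limma, over the 3076 probe sets that reached a log2 level of 7 on at least 3 arrays and lay in the most variable tercile. Of the 49 genes 17 passed this filter, which were 10 Adamts, 1 Adamtsl, 4 Mmp and 2 Timp genes. A gene that passed only through its high group had to differ, so counts over these 17 are descriptions. For the other 32 the adjusted p over all 21789 probe sets is given.

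The precursor marker Pdgfra was at a log2 level of 11.01 to 11.56 on all 8 arrays. The array labelled SD viAP replicate 4 went against its label. It had the subcutaneous gene Tbx15 at 9.77 and the visceral gene Tcf21 at 5.32, against 4.70 and 9.61 on SD viAP replicate 3. Over the 49 genes it differed from SD scAP replicate 2 by 0.18 on average and from SD viAP replicate 3 by 0.40. The values that leaving it out moved most are given with and without it.

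The promoters of the genes that the results turn on are shown first. RefSeq promoter windows (build GRCm38.p6, from 250 bases before to 50 after the annotated start) were available for 34 of the 49 genes, as 37 windows. The 5 printed here belong to ADAMTS genes and a TIMP that changed with diet in both depots or in scAPs, and to the 2 MMP genes with the widest range of levels over the arrays. Capitals mark TATAAA, the core of the TATA box, and TGANTCA, the site of AP-1 (FOS and JUN proteins), searched on both strands.
Adamts1, chr16:85803064-85803363, minus strand: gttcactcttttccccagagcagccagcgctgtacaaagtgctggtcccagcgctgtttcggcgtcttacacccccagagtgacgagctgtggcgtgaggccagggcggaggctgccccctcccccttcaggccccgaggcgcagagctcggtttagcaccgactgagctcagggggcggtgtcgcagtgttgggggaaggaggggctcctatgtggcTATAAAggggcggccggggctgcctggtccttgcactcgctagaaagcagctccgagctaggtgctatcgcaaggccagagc
Adamts12, chr15:11064523-11064822, plus strand: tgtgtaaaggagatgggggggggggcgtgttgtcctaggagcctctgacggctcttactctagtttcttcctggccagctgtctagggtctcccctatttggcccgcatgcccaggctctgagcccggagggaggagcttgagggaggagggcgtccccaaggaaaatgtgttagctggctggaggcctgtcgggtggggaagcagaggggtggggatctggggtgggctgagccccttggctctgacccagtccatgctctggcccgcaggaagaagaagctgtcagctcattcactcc
Timp1, chrX:20869916-20870215, plus strand: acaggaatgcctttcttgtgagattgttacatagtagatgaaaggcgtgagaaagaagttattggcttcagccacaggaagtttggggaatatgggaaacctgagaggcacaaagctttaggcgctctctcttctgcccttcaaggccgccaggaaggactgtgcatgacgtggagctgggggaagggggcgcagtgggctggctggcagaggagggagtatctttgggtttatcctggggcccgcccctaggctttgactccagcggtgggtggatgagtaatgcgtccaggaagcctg
Mmp3, chr9:7445572-7445871, plus strand: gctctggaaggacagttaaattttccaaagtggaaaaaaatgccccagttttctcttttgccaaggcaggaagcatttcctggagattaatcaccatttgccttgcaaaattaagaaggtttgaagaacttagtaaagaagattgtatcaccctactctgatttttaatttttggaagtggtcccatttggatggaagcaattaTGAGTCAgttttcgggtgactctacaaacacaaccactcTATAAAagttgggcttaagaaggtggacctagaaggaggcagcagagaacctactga
Mmp27, chr9:7571146-7571445, plus strand: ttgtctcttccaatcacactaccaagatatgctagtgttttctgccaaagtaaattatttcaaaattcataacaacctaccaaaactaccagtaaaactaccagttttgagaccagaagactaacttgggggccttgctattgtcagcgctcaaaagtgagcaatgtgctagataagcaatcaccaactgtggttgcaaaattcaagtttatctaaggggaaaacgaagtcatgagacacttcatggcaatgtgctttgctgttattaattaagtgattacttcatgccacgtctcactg

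The Adamts1 window held TATAAA at bases -32 to -27 from the annotated start, and the Adamts12 and Timp1 windows held neither motif. The Mmp3 window held TGAGTCA at -46 to -40 and TATAAA at -7 to -2. The Mmp27 window held neither. Mmp3 and Mmp27 belong to a run of 10 MMP genes that follow each other on chromosome 9 with no other protein-coding gene between them (Mmp13, Mmp12, Mmp1b, Mmp3, Mmp1a, Mmp10, Mmp8, Mmp27, Mmp20 and Mmp7). All 10 had a window, 8 of these held TGANTCA, and the same 8 also held TATAAA. The windows of the 24 other members held TGANTCA in 0 cases and TATAAA in 3. Of all 32851 promoter windows 7.81% held TGANTCA and 13.62% held TATAAA. Adamts1 and Adamts5 were likewise direct neighbours, on chromosome 16.

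The question of the diet comparison was which of these genes differed in APs after 3 days of HFD. In viAPs 9 of the 17 tested genes rose and 1 fell. Of all probe sets tested, 60.6% rose and 4.19% fell, so the share of members that rose was near that of the array. With a change of at least 2-fold 5 rose, where 12.5% of all did, and 1 fell, where 1.01% did. The median change of the 17 was 0.60, against 0.63 over all probe sets tested. In scAPs 5 rose, where 29.1% of all did, and 1 fell, where 1.3% did. At 2-fold these were 2, where 3.22% of all did, and 1, where 0.163% did. The median there was 0.32, against 0.40 over all probe sets tested.

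With no filter and adjustment over all 21789 probe sets, 6 of the 49 genes rose in viAPs, where 4.3% of all did, and 0 fell, where 0.532% did. In scAPs 0 rose, where 0.00459% of all did, and 0 fell, while 8 of the 49, or 16.3%, had an unadjusted p under 0.05, against 14.8% of all. Counted by arrays alone, 19 of the 49 were higher on both HFD viAP arrays than on both SD viAP arrays, where 28.9% of all probe sets were, and 9 were lower, where 31.2% were. The 19 held 11 of 18 Adamts, 3 of 5 Adamtsl, 4 of 22 Mmp and 1 of 4 Timp genes. In scAPs 11 of the 49 were higher on both HFD arrays, where 21.7% were, and 6 were lower, where 18.8% were.

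The genes that rose were mostly ADAMTS proteases, which made up 10 of the 17 genes tested. In viAPs they were Adamts1, Adamts3, Adamts4, Adamts5, Adamts10, Adamts12, Adamts14 and Adamts16, together with Mmp23. These are 8 of the 10 Adamts genes tested, where 60.6% of all probe sets tested rose. In scAPs they were Adamts1, Adamts5, Adamts12 and Adamts14, which are 4 of 10 where 29.1% of all rose, together with Timp3. The genes that fell were Mmp3 in viAPs and Timp1 in scAPs. Over all 49 genes, tested or not, the change in viAPs was positive for 13 of 18 Adamts, 4 of 5 Adamtsl, 6 of 22 Mmp and 2 of 4 Timp genes. In scAPs it was positive for 13 of 18 Adamts, 4 of 5 Adamtsl, 10 of 22 Mmp and 2 of 4 Timp genes. The median change over all 21789 probe sets was -0.054 in viAPs and -0.0045 in scAPs.

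**Figure D1:**
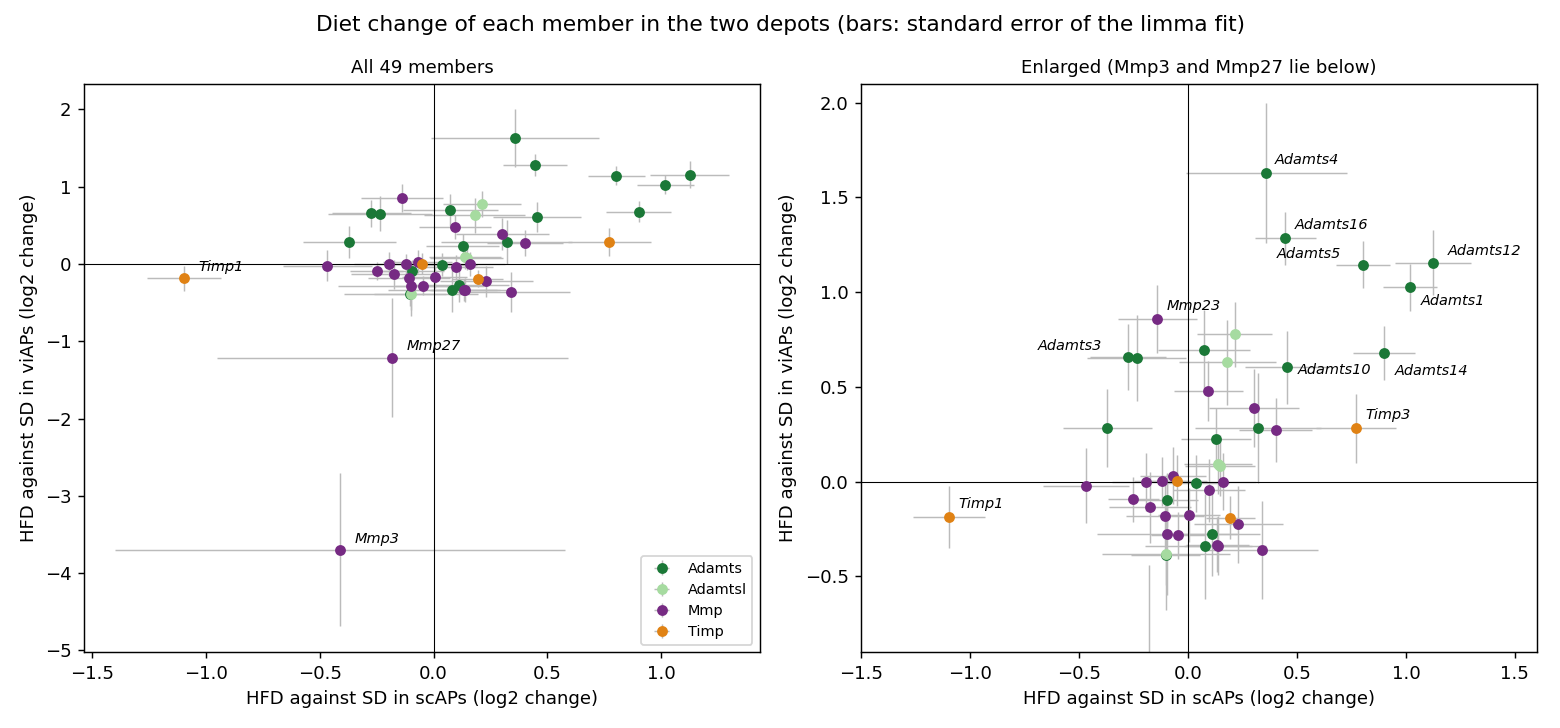
Log2 change of each of the 49 genes after HFD against SD in viAPs (vertical) and in scAPs (horizontal), coloured by family, with standard errors of the limma fit; the right panel enlarges the centre. Adamts1, Adamts5, Adamts12 and Adamts14 lie up and to the right in both depots, Adamts4 and Adamts16 are high mainly on the viAP axis, Timp1 lies far to the left and Mmp3 far down.

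Adamts1 encodes a protease that cuts the proteoglycans versican and aggrecan. Its level was 11.47 and 11.37 in HFD viAPs, against 10.48 and 10.31 in SD viAPs. In HFD scAPs it was 11.50 on each array, against 10.41 and 10.55 in SD scAPs. All 4 HFD arrays lay above all 4 SD arrays. Adamts1 rose by 1.03 in viAPs (standard error 0.12, limma adjusted p = 0.00402) and by 1.02 in scAPs (standard error 0.12, adjusted p = 0.0141).

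Adamts5, its neighbour on chromosome 16, encodes the main aggrecan-cutting protease of mouse cartilage, which also cuts versican. Its level was 11.91 and 11.82 in HFD viAPs, against 10.67 and 10.76 in SD viAPs. In HFD scAPs it was 11.50 and 11.47, against 10.79 and 10.58 in SD scAPs. The groups did not overlap in either depot, and the gene rose by 1.14 in viAPs (limma adjusted p = 0.00339) and by 0.80 in scAPs (adjusted p = 0.0142).

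Adamts12, whose product cuts cartilage oligomeric matrix protein, rose in both depots. Its level was 11.19 and 11.09 in HFD viAPs, against 9.81 and 10.16 in SD viAPs. On the HFD scAP arrays it was 11.26 and 11.04, against 9.89 and 10.16 in SD scAPs. The HFD arrays lay above the SD arrays in each depot. Adamts12 rose by 1.16 in viAPs (standard error 0.17, limma adjusted p = 0.00486) and by 1.12 in scAPs (adjusted p = 0.0142).

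Adamts14 encodes a procollagen N-propeptidase, which trims the ends of fibrillar collagens before they assemble. Its level was 8.16 and 8.15 in HFD viAPs, against 7.55 and 7.41 in SD viAPs. On the HFD scAP arrays it was 7.98 and 7.67, against 6.98 and 6.87 in SD scAPs. All HFD arrays were again above all SD arrays. The rise was 0.68 in viAPs (limma adjusted p = 0.00908) and 0.90 in scAPs (adjusted p = 0.0142).

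Adamts16, a protease reported to cut fibronectin, had its highest levels in HFD viAPs. These were 7.96 and 8.22, against 6.83 and 6.78 in SD viAPs. In HFD scAPs the level was 7.44 and 7.23, against 6.88 and 6.89 in SD scAPs. Adamts16 rose by 1.28 in viAPs (limma adjusted p = 0.00339, and 0.0192 with no filter). It exceeded a log2 level of 7 on HFD arrays alone, so it passed the filter through the groups where it was high. In scAPs the arrays did not overlap, but the change of 0.45 missed the threshold (adjusted p = 0.0522).

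Adamts4 encodes another proteoglycan-cutting enzyme and varied widely among SD arrays. Its level was 10.75 and 10.69 in HFD viAPs, against 9.59 and 8.60 in SD viAPs, the lower of these being on replicate 4. On the HFD scAP arrays it was 9.65 and 9.36, against 8.75 and 9.54 in SD scAPs, and these groups overlapped. Adamts4 rose by 1.63 in viAPs (standard error 0.37, limma adjusted p = 0.0113), or by 1.14 without SD viAP replicate 4 (adjusted p = 0.0474).

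Adamts3 and Adamts10 rose in viAPs, but these calls were lost without SD viAP replicate 4. Adamts10, whose product binds and processes fibrillin microfibrils, was at 9.04 and 8.91 in HFD viAPs, against 8.56 and 8.17 in SD viAPs. Its change was 0.60 (limma adjusted p = 0.0314), and 0.41 without SD viAP replicate 4 (adjusted p = 0.147). Adamts3, which encodes a procollagen N-propeptidase that also activates the lymphatic growth factor VEGFC, was at 7.65 and 7.70 in HFD viAPs, against 7.23 and 6.81 in SD viAPs. Its change was 0.66 (adjusted p = 0.0175), and 0.45 without SD viAP replicate 4 (adjusted p = 0.0682). In HFD scAPs Adamts3 was at 6.55 and 6.52, against 6.67 and 6.95 in SD scAPs, a difference of -0.27 that was not called (adjusted p = 0.25).

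The array carries 16 probe sets for Adamts3, of which only 1 had a mean level above 7. All 16 gave a positive change in viAPs, with a median of 0.63, and 14 of 16 gave a negative change in scAPs, with a median of -0.20. Probe sets of a gene share the same RNA and are not replicates.

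The other ADAMTS genes differed less or were dim. Adamts9 and Adamts15 passed the filter and were not called in either depot. Adamts6, Adamts8 and Adamts17 were singled out after their values were seen. Adamts6 and Adamts8, both outside the filter, had changes of 0.65 and 0.70 in viAPs (limma adjusted p over all probe sets 0.137 and 0.103). Adamts17, which has 5 probe sets, had a negative change in viAPs on all 5, of -0.39 for the brightest (adjusted p over all probe sets 0.182). Adamts13, Adamts20 and Adamts6 lay under the median of every array.

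Among the ADAMTS-like genes, whose products bind fibrillin, none was called in either depot. All 5 were above the array median on all 8 arrays. Adamtsl1, the brightest and the only member of this family that was tested, was at 8.65 and 8.58 in HFD viAPs, against 8.53 and 9.47 in SD viAPs, and these overlapped. Adamtsl3, singled out after its values were seen, was at 7.64 and 7.16 in HFD viAPs, against 6.66 and 6.58 in SD viAPs. Its change of 0.78 had an adjusted p over all probe sets of 0.0534 in limma.

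**Figure D2:**
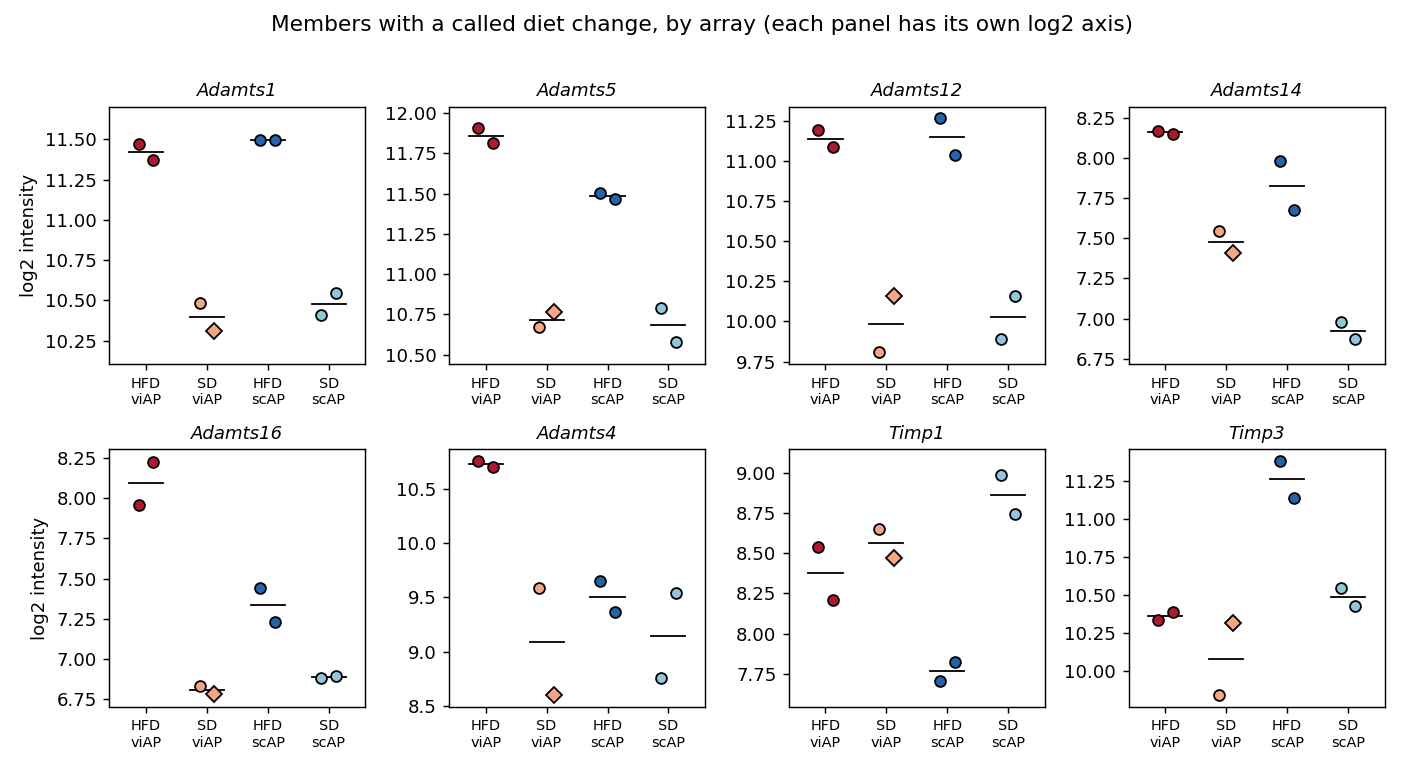
Log2 intensity of 8 genes with a called diet change on each of the 8 arrays; each panel has its own axis, lines are group means and the diamond is the array labelled SD viAP replicate 4. Adamts1, Adamts5, Adamts12, Adamts14 and Adamts16 were higher on all 4 HFD arrays than on all 4 SD arrays, Adamts4 was highest in HFD viAPs, and Timp1 was lowest and Timp3 highest in HFD scAPs.

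Timp1 was the only member that fell in scAPs. It encodes a secreted inhibitor of most soluble MMPs. Its level was 7.71 and 7.83 in HFD scAPs, against 8.98 and 8.74 in SD scAPs, and the groups did not overlap. In HFD viAPs it was 8.54 and 8.21, against 8.65 and 8.47 in SD viAPs, and these overlapped. Timp1 was 2.14-fold lower in HFD scAPs than in SD scAPs (standard error 0.16 on the log2 scale, limma adjusted p = 0.0142). In viAPs the difference was -0.19 and was not called.

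Timp3, which encodes the inhibitor that binds to matrix and blocks ADAMTS4 and ADAMTS5 as well as MMPs, was highest in HFD scAPs. Its level there was 11.38 and 11.14, against 10.55 and 10.43 in SD scAPs. In HFD viAPs it was 10.33 and 10.39, against 9.84 and 10.32 in SD viAPs. Timp3 rose by 0.77 in scAPs (limma adjusted p = 0.0276), a call that was lost in 9 of 17 alternatives. In viAPs its change was 0.28 (adjusted p = 0.197), and 0.52 without SD viAP replicate 4 (adjusted p = 0.0468).

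Markers of other cell types also differed between diets. All 12 endothelial markers had a positive change in scAPs, with a median of 0.98. Only 3 of the 12 were tested, and 1 of these was called, which was Cdh5 (1.83, limma adjusted p = 0.0225). Of all probe sets tested 29.1% rose. With no filter 0 of the 12 were called, where 0.00459% of all rose. The summed intensity of the 12 markers was 2817 and 2866 in HFD scAPs, against 1712 and 1622 in SD scAPs. In viAPs the change was negative for 9 of the 12, with a median of -0.28. The summed intensity there was 1512 and 1455 in HFD viAPs, against 1292 and 1296 in SD viAPs. Of the 3 tested Tek alone was called (0.69, limma adjusted p = 0.00962), where 60.6% of all probe sets tested rose. Pecam1, the gene of CD31, was at a log2 level of 7.78 and 7.70 in HFD scAPs, against 6.25 and 6.38 in SD scAPs. The summed intensity of 7 pericyte and smooth muscle markers was 1270 and 959 in HFD viAPs, against 841 and 554 in SD viAPs. The second value of each SD viAP pair here is that of replicate 4. Des was at a log2 level of 5.32 on that array, against 7.84 on SD viAP replicate 3. Of the 7 markers 5 had a positive change in viAPs and 2 a negative one. Of the 2 tested 0 were called, where 60.6% of all probe sets tested rose. The summed intensity of 6 mature adipocyte markers was 244 and 262 in HFD viAPs, against 338 and 413 in SD viAPs. With no filter 1 of the 6 was called lower (Retn, limma adjusted p = 0.0324), where 0.532% of all probe sets were. For 8 macrophage and blood markers the sum was 359 and 350 in HFD viAPs, against 469 and 386 in SD viAPs. Cd68 was at log2 levels of 6.92 and 6.82 in HFD viAPs, against 7.84 and 6.94 in SD viAPs. Of the 8 macrophage and blood markers 0 were tested. With no filter 0 were called in viAPs, where 4.3% of all probe sets rose and 0.532% fell. In scAPs these 3 sums were 649 and 622 (pericyte and smooth muscle), 309 and 293 (adipocyte) and 385 and 385 (macrophage and blood) after HFD, against 513 and 528, 379 and 379, and 374 and 347 after SD. The part of these cells in the changes of the Adamts, Mmp and Timp genes was not tested. In a bulk sample a changed share of a cell type and a changed amount of RNA per cell cannot be told apart.

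Timp2, the inhibitor that also helps MMP14 to activate pro-MMP2, was not called in either depot. Its level was 12.51 and 12.55 in HFD viAPs, against 12.49 and 12.57 in SD viAPs, and 12.39 and 12.54 in HFD scAPs, against 12.65 and 12.38 in SD scAPs. The groups overlapped in both depots. Timp4 was dim, at 5.13 and 5.17 in HFD viAPs, against 5.39 and 5.29 in SD viAPs, and at 5.67 and 5.73 in HFD scAPs, against 5.46 and 5.55 in SD scAPs. Its differences of -0.19 in viAPs and 0.19 in scAPs were not called.

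Of the 22 MMP genes 10 lay under the median of every array, among these 7 of the run on chromosome 9 (Mmp1a, Mmp1b, Mmp7, Mmp8, Mmp12, Mmp13 and Mmp20). The gelatinase gene Mmp9 was at 5.09 to 5.93 over all 8 arrays and was not called in any comparison. Mmp11, which encodes stromelysin-3, was at 7.25 to 7.55, and its groups overlapped in every comparison of diet.

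Mmp14 encodes the membrane-bound collagenase that activates pro-MMP2. Its level was 11.31 and 11.32 in HFD viAPs, against 10.82 and 11.26 in SD viAPs, and 11.76 and 11.78 in HFD scAPs, against 11.47 and 11.27 in SD scAPs. The groups did not overlap in either depot, but the changes of 0.27 and 0.40 did not pass (limma adjusted p over all probe sets 0.335 and 0.338). Mmp19 was at 10.21 and 10.13 in HFD viAPs, against 9.96 and 9.59 in SD viAPs, a change of 0.39 that was not called either.

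Mmp23, the gene of a small membrane-anchored MMP that is released by cleavage, was the only MMP gene that rose. Its level was 9.35 and 9.33 in HFD viAPs, against 8.40 and 8.56 in SD viAPs. In HFD scAPs it was 8.64 and 8.86, against 9.12 and 8.66 in SD scAPs, and these overlapped. Mmp23 rose by 0.86 in viAPs (standard error 0.18, limma adjusted p = 0.00914), and its difference of -0.14 in scAPs was not called.

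Mmp3 encodes stromelysin-1, which cuts a wide range of matrix proteins and activates other pro-MMPs. Its level was 5.52 on both HFD viAP arrays, under the median of those arrays, against 7.44 and 11.00 in SD viAPs. In HFD scAPs it was 10.97 on each array, against 11.60 and 11.16 in SD scAPs. The SD viAP value of 11.00 came from replicate 4, and lay in the range of the scAP arrays. A fold against a level that dim is only a lower bound, for which the median of the HFD viAP arrays was taken as the floor. With SD viAP replicate 4 in the SD mean, Mmp3 was at least 12.3-fold lower in HFD viAPs (measured log2 difference -3.70, standard error 0.99, limma adjusted p = 0.0182). With no filter the adjusted p was 0.0808. That bound rests in part on replicate 4. Without that array Mmp3 was at least 3.59-fold lower (measured log2 difference -1.92). In fits without that array the lone SD viAP array was assumed to vary like the other groups. In scAPs the difference was -0.41 and was not called.

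Averaged over both depots, 4 HFD arrays against 4 SD arrays, 9 of the 17 genes rose, where 65.9% of all probe sets tested did, and 2 fell, where 5.33% did. The 9 were Adamts1, Adamts4, Adamts5, Adamts10, Adamts12, Adamts14, Adamts16, Mmp23 and Timp3, and the 2 were Mmp3 and Timp1. Mmp23 was no longer called without SD viAP replicate 4 (0.40, limma adjusted p = 0.0589), nor without replicate 3 (0.32, adjusted p = 0.0969), and it lost its call in 10 of 16 alternatives. The measured difference for Mmp3 was -2.06, and -1.16 without SD viAP replicate 4 (adjusted p = 0.00501). It lost its call in 9 of 16 alternatives. Adamts4 rose by 0.99, and by 0.75 without that array (adjusted p = 0.0323). The largest rises were those of Adamts12, by 1.14, and Adamts1, by 1.02 (limma adjusted p = 0.00138 and 0.00114). At 2-fold or more 2 rose, where 4.78% of all did, and 1 fell, where 0.488% did. With no filter 7 of the 49 rose, where 8.74% of all did, and 1 fell, where 2.7% did. On all 4 HFD arrays 6 of the 49 genes were above all 4 SD arrays, where 11% of all probe sets were. These were Adamts1, Adamts5, Adamts12, Adamts14, Adamts16 and Adamtsl3. Below all 4 SD arrays were 0 of the 49, where 7.24% of all probe sets were.

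Whether the diet change differed between depots was tested as an interaction. Of the 17 genes 0 were called in limma, and 0% of all probe sets tested were. With no filter 0 of the 49 were called, where 0.00459% of all were. At an unadjusted p under 0.05 were 5 of the 17, and 397 of all 3076. The 5 were Adamts3, Adamts4, Adamts16 and Mmp23, whose change was higher in viAPs by 0.93, 1.27, 0.84 and 1.00, and Timp1, whose change was higher in viAPs by 0.91. The smallest adjusted p among them was 0.298. The difference for Adamts4 was 0.78 without SD viAP replicate 4, and that measured for Mmp3 was -1.51, against -3.29 with it, and 0 were called. Without SD viAP replicate 3 the difference for Mmp3 was -5.07 (adjusted p = 0.00506) and that for Mmp27 was -2.40 (adjusted p = 0.0254), and these 2 were then called, with SD viAP represented by the array that went against its label.

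The depot comparison asked how these genes differ between viAPs and scAPs on a given diet. On HFD, where the 4 arrays carried the depot genes of their labels, 2 of the 17 genes were higher in viAPs, where 1.79% of all probe sets tested were, and 1 was lower, where 0.78% were. The higher genes were Adamts3 and Adamts16, and the lower one was Mmp3. Over all 49 genes 16 were higher on both HFD viAP arrays than on both HFD scAP arrays, where 20.3% of all probe sets were, and 13 were lower, where 20% were. The 16 held 10 of 18 Adamts, 2 of 5 Adamtsl, 3 of 22 Mmp and 1 of 4 Timp genes, and the 13 held 2 of 18, 3 of 5, 6 of 22 and 2 of 4. At 2-fold or more 1 was called higher, where 1.3% of all were, and 1 lower, where 0.683% were. With no filter 0 of the 49 were called, where 0.00459% of all were higher.

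**Figure D3:**
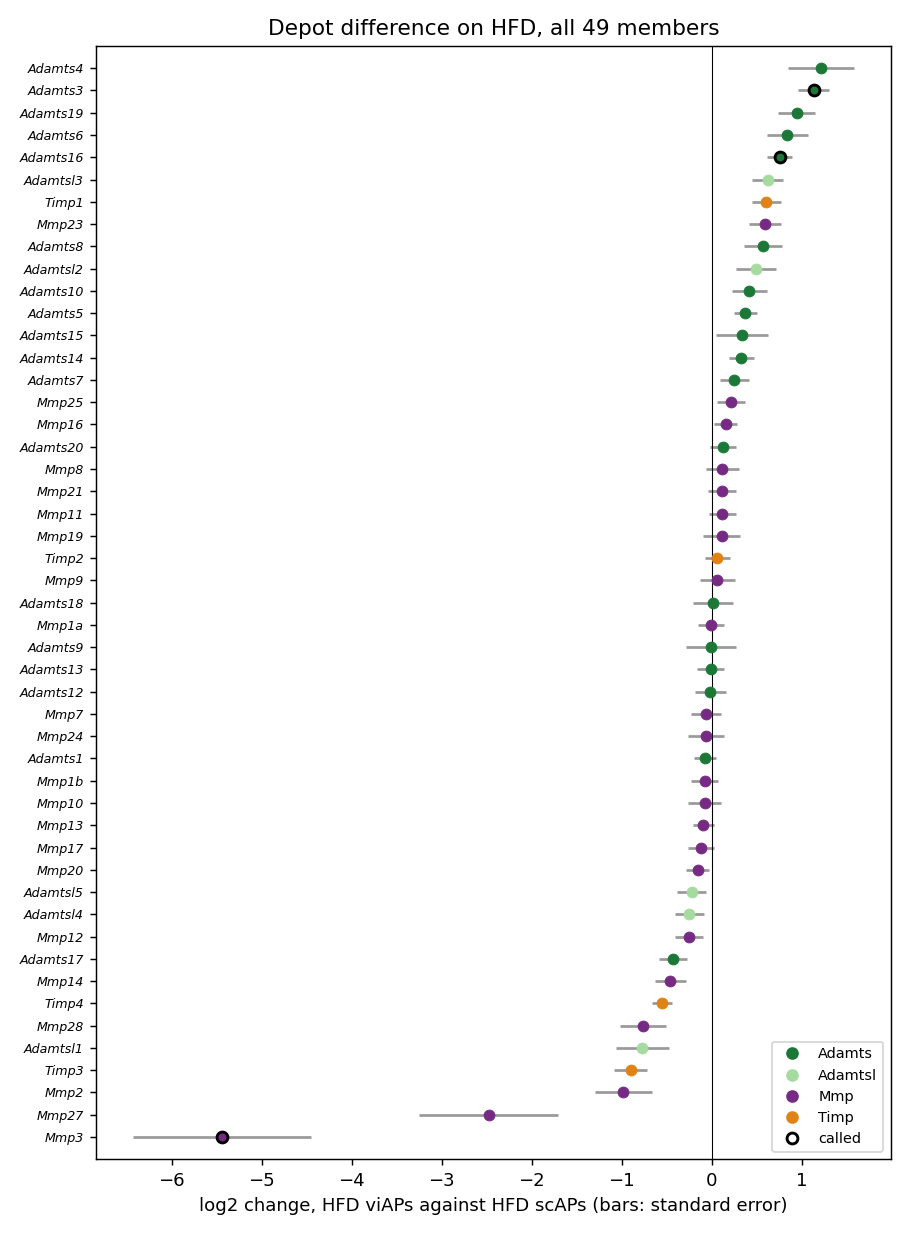
Log2 change between HFD viAPs and HFD scAPs for each of the 49 genes, sorted, with standard errors of the limma fit; rings mark the 3 called genes. Adamts genes gather at the top, Mmp3 lies at -5.45, and Mmp27, Mmp2, Timp3 and Adamtsl1 follow it.

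Mmp3 had the widest difference of all members. It was at 5.52 and 5.52 in HFD viAPs, against 10.97 and 10.97 in HFD scAPs, so it was at least 41.3-fold lower in viAPs with the same floor (measured log2 difference -5.45, standard error 0.99, limma adjusted p = 0.0476). With no filter the adjusted p was 0.114. In SD viAPs it was 7.44 and 11.00, against 11.60 and 11.16 in SD scAPs, and the difference of -2.16 was not called. Without SD viAP replicate 4 the log2 difference was -3.94, with a lone SD viAP array.

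Mmp27, a gene of the same run but not adjacent to Mmp3, was singled out after its values were seen. It was likewise low on 3 of the 4 viAP arrays and high on the other 5 arrays. It was at 6.75 and 6.79 in HFD viAPs, against 9.14 and 9.37 in HFD scAPs. In SD viAPs it was 6.61 and 9.36, against 9.64 and 9.23 in SD scAPs, where 9.36 was again on replicate 4. The difference on HFD was -2.48 (standard error 0.77, limma adjusted p = 0.118). Fitted without SD viAP replicate 3, or without replicate 4, the same difference had a standard error of 0.17. Neither array enters this difference, so leaving out either one altered only the estimate of the spread. Mmp27 gained a call in 3 of 17 alternatives. The other 8 genes of the run were at 3.00 to 5.86 on all arrays.

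Mmp2, the gene of gelatinase A, and Adamtsl1 followed the depots in a smaller range. Mmp2 was at 11.40 and 11.52 in HFD viAPs, against 12.40 and 12.48 in HFD scAPs, and at 11.19 and 12.28 in SD viAPs, against 12.59 and 12.48 in SD scAPs. Adamtsl1 was at 8.65 and 8.58 in HFD viAPs, against 9.36 and 9.41 in HFD scAPs, and at 8.53 and 9.47 in SD viAPs, against 9.66 and 9.31 in SD scAPs. In each case the higher SD viAP value was that of replicate 4. The differences on HFD were -0.98 for Mmp2 and -0.77 for Adamtsl1 (standard error 0.32 and 0.29, limma adjusted p = 0.132 and 0.175). With either SD viAP array left out of the fit, replicate 3 or 4, the standard errors were 0.11 and 0.15. Each gene gained a call in 3 of 17 alternatives.

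**Figure D4:**
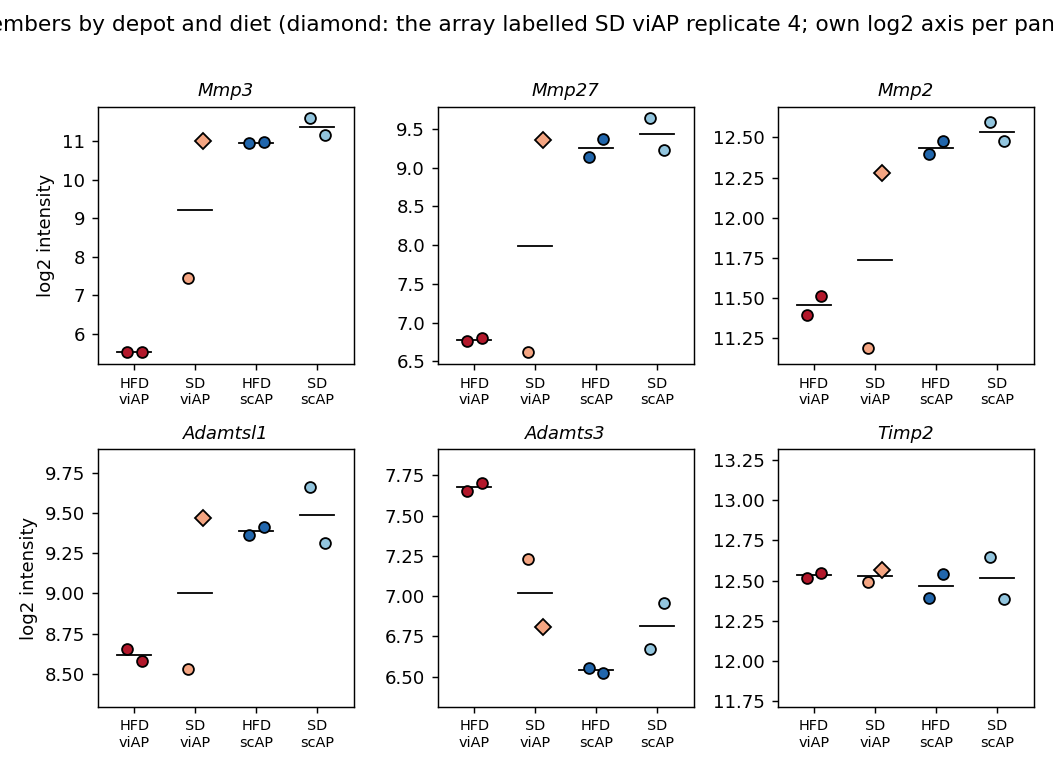
Log2 intensity of Mmp3, Mmp27, Mmp2, Adamtsl1, Adamts3 and Timp2 on each of the 8 arrays; each panel has its own axis, lines are group means and the diamond is the array labelled SD viAP replicate 4. For Mmp3, Mmp27, Mmp2 and Adamtsl1 the diamond lies with the scAP arrays and away from the other viAP arrays, while Timp2 was at 12.38 to 12.65 throughout.

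Adamts3 was at 7.65 and 7.70 in HFD viAPs, against 6.55 and 6.52 in HFD scAPs. It was 2.20-fold higher in viAPs (log2 change 1.14, standard error 0.17, limma adjusted p = 0.045), and all 16 of its probe sets gave a positive difference, of 0.59 to 2.06. Adamts3 exceeded a log2 level of 7 on viAP arrays alone, so it passed the filter through the group where it was high, and with no filter it was not called (adjusted p = 0.0907). Adamts16, which passed the filter through the HFD arrays, was higher by 0.76 (limma adjusted p = 0.0489). With no filter Adamts16 was not called (adjusted p = 0.119). Adamts4 was higher by 1.22 with all arrays in the fit, which did not pass (adjusted p = 0.113), and gained a call in 3 of 17 alternatives. Timp3 was at 10.33 and 10.39 in HFD viAPs, against 11.38 and 11.14 in HFD scAPs. Its difference of -0.90 also did not pass (limma adjusted p = 0.0587), and gained a call in 7 of 17 alternatives. The calls of Adamts3 and Adamts16 were each lost in 10 of 17.

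On SD 0 of the 17 genes were called between depots in limma with all arrays in the fit, and 0% of all probe sets tested were. At an unadjusted p under 0.05 were 2 of the 17, or 11.8%, which were Adamts14 and Mmp2, against 25.1% of all probe sets tested. Over all 49 genes 6 were higher on both SD viAP arrays, where 16.9% of all probe sets were, and 11 were lower, where 15.9% were. Without SD viAP replicate 4 the SD viAP group was a lone array, whose spread could not be measured. The log2 differences from SD scAPs were then -3.94 for Mmp3, -2.82 for Mmp27, -1.35 for Mmp2 and -0.95 for Adamtsl1.

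Other genes of the pathway were taken from a list of 34 activators, inhibitors, receptors, related proteases and substrates, of which 31 were measured and 16 were tested. In viAPs 16 of 16 rose, where 60.6% of all probe sets tested did, and 0 fell. In scAPs 10 rose, where 29.1% of all did, and 0 fell. With no filter 8 of the 31 rose in viAPs, where 4.3% of all did, and 0 in scAPs, where 0.00459% did. Between depots 0 were called on either diet. Of all probe sets tested 1.79% were higher and 0.78% lower in viAPs on HFD, and 0% were called on SD. Plau, the gene of the urokinase that activates plasminogen, was at 11.12 and 10.97 in HFD viAPs, against 9.84 and 9.59 in SD viAPs, a rise of 1.32 (limma adjusted p = 0.00409). In scAPs its difference of 0.25 was not called. Furin and Pcsk6 encode proprotein convertases, a group that removes the propeptide of ADAMTS enzymes and membrane MMPs. Furin rose by 0.56 in viAPs and by 0.85 in scAPs (adjusted p = 0.00953 and 0.0141), and Pcsk6 by 1.08 and by 1.01 (adjusted p = 0.00439 and 0.0142). Lrp1, the gene of the receptor that clears several of these proteases and TIMPs from the cell surface, rose by 0.78 and by 0.70 (adjusted p = 0.00444 and 0.0142). Vcan, the gene of the substrate versican, was at 11.75 and 11.52 in HFD viAPs, against 10.95 and 10.07 in SD viAPs, a rise of 1.13 (adjusted p = 0.014), and it rose by 0.98 in scAPs (adjusted p = 0.0405).

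Genes that respond to tissue digestion and stress were set beside these results. Of the 15 measured 7 were tested. In viAPs 2 rose, where 60.6% of all probe sets tested did, and 0 fell, where 4.19% did. In scAPs 4 rose, where 29.1% of all did, and 0 fell, where 1.3% did. Their summed intensity was 54189 and 50885 in HFD viAPs, against 50633 and 45863 in SD viAPs, and 56435 and 53798 in HFD scAPs, against 48628 and 43898 in SD scAPs. Their part in the diet changes was not tested.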

How the data were processed

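RNA of bead-purified APs was hybridized to 8 Affymetrix Mouse Gene 1.0 ST arrays, 2 for each of 4 groups, and groups came from the sample labels. The deposited table gives the intensity of 35556 probe sets on each array, in whole numbers and not as logarithms. RMA and Affymetrix Expression Console 1.1 are named in the submitters' processing notes, whereas the methods name an R package, and the antilog and rounding are not given in the sources used here. RMA equalizes arrays at the probe level and compresses changes of dim probe sets. The deposited intensities were converted to log2. With limma 3.58.1 in R 4.3.3 group means were estimated from the 8 arrays together (lmFit, then eBayes over all probe sets, which added 2.64 degrees of freedom to the 4 of the residuals), and p-values were adjusted by Benjamini-Hochberg over the 3076 probe sets that passed the filter, or over the 21789 with 1 symbol. The 6 comparisons were HFD against SD in each depot and averaged, their difference, and viAP against scAP on each diet. Nothing says more of the replicates than that each array was a pool of 3 mice, so p-values measure the spread between such pools, and the number of arrays limits the precision.

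Every gene called in a comparison, the 4 Timp genes, Mmp2, Mmp3, Mmp9, Mmp11, Mmp14, Mmp19 and Mmp23, the brightest genes of each family and genes with opposite directions in the depots were to be named. The members and lists were chosen with earlier results of these data known. Adamtsl1 passed the filter, and the others of that family did not. Alternatives were a fit of only the arrays compared, log2 of the intensity plus 16, 2 other scalings, other filters, a variance trend, the mean of a gene's probe sets, moderation within the filter (chosen after the data were seen) and leaving out each array. The set of tested probe sets was held when the scaling or the arrays changed. The fit was tested on simulated data. Entrez identifiers matched the reference for 49 of 49 genes. Figures were drawn with matplotlib in Python.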

Additional observations from a re-analysis of the deposited data

Results flagged for a closer look

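Adamts3 and Timp4 had diet differences of opposite sign in the depots, with no overlap of arrays in either. Of their diet differences only that of Adamts3 in viAPs was called. Adamts3 was higher on both HFD viAP arrays than on both SD viAP arrays and lower on both HFD scAP arrays than on both SD scAP arrays. The diet change in viAPs minus that in scAPs was 0.93 (standard error 0.25, limma adjusted p = 0.298). Timp4 was lower in HFD viAPs than in SD viAPs and higher in HFD scAPs than in SD scAPs. Its change in viAPs minus that in scAPs was -0.38 (standard error 0.16, adjusted p over all probe sets 0.811), at log2 levels of 5.13 to 5.73. Neither difference passed the threshold.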

How the results depend on the processing

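Of 31 called changes of single genes 0 turned direction under any alternative run. They kept their call in 388 of the refits and lost it in 127, and 101 changes that were not called gained a call in 40 refits. Averaged over both depots, Adamts1, Adamts5, Adamts12, Adamts14, Adamts16 and Timp1 were called under every alternative run. Called members numbered 10 in viAPs, and 6 with no filter. In scAPs they numbered 6, but 0 with only the arrays compared and 0 with no filter. Averaged over depots they numbered 11, and 7 after a second quantile normalization. Between depots on HFD they numbered 3, but 7 with only the arrays compared and 0 after a second quantile normalization, with no filter or with the expression filter only. That normalization gave 6 higher and 2 lower in viAPs, where the deposited scaling gave 9 and 1, and averaged over depots 5 and 2, where it gave 9 and 2. Median centring gave 2 and 2 between depots on HFD, against 2 and 1. The median change over all probe sets tested was 0.63 in viAPs as deposited, 0.77 after centring and 0.38 after the second normalization. The causes were not tested.

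Leaving out each array in turn gave 1 to 13 called in viAPs, 0 to 6 in scAPs, 7 to 14 averaged over depots, 0 to 2 for the interaction, 0 to 8 between depots on HFD and 0 to 4 between depots on SD. In viAPs 1 was called without HFD viAP replicate 5 (Adamts16) and 6 without HFD viAP replicate 6. In scAPs 0 were called without HFD scAP replicate 7, HFD scAP replicate 8 or SD scAP replicate 2. Between depots on HFD 8 were called without SD viAP replicate 3 or 4, and 0 without any array of the other groups. Without SD viAP replicate 4, 9 were called in viAPs, of which 8 were called with it. No paired analysis was possible because the labels number the arrays 1 to 8 and no number occurs in more than 1 group. Dim probe sets carry little information on fold changes, and 13 of the 49 genes lay under the array median throughout.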
